A study of Bos taurus with 8 samples.

Results

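All 6 arrays of bovine embryonic stem-like cell (eSLC) lines, taken as 1 group whatever the embryo they came from, were set against both arrays of bovine somatic cells (SCs). These are all 8 of the 8 arrays of the series. The eSLC lines were I2 and I9 from in vitro produced (IVP) embryos, N2 and N7 from nuclear transfer (NT) embryos and P1 and P4 from parthenogenetic (PA) embryos, all of HanWoo cattle. The labels name 6 separate lines, each hybridized once, at passage 35 for I2, 30 for I9, 36 for N2, 30 for N7, 31 for P1 and 36 for P4. The SCs were hybridized at passages 5 and 10 (SC P5 and SC P10), and the labels say no more of their tissue than somatic cells, so that the 2 SC arrays may stand for 1 culture and p-values measure the spread between these 8 samples alone. The eSLCs were kept on mitomycin-C treated murine STO feeder cells in serum-free medium with 3 inhibitors (3i: PD184352 against MEK, SU5402 against the FGF receptor and CHIR99021 against GSK3), whereas the SCs were kept in DMEM with 10% fetal bovine serum. Medium, serum, feeder and passage number therefore cannot be told apart from cell type in any difference given here.

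Blastocyst-derived bovine lines can hold cells of the epiblast, the hypoblast and the trophectoderm. Trophectoderm is the outer epithelium of the blastocyst: its cells are joined by tight junctions and desmosomes, have an apical and a basal face, and in ruminants secrete pregnancy-associated glycoproteins. Fibroblast-like cells in serum are mesenchymal: they lay down collagen and proteoglycans, carry stress fibres and caveolae, and grow a primary cilium when they rest.

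Signals were 1-colour Agilent intensities after background subtraction, divided by the 75th percentile of their own array, which is written here as 1000. A gene was represented by its brightest probe by mean log2 signal over all 8 arrays, 6 of them eSLC, which can favour a probe that did not fall, and signals at or below 13.3, the highest of the 8 arrays' lowest signals well above background, were set to 13.3 and are called the floor. Differences are log2 values, eSLC mean minus SC mean, and a gene was called where limma gave an adjusted p under 0.05 and the difference was at least 2-fold. Where every array of the dimmer group was at the floor or not well above background, the difference is only a bound and is given as an at-least fold, the brighter group's mean over that of the dimmer group with its arrays held at the floor or, where higher, at their own signal. Levels are compared between samples and not between genes, because each probe has its own brightness. Fewer cells of a type and less RNA per cell cannot be told apart on such arrays.

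The 2 groups stood further apart than any arrays within a group. Over the 10626 genes tested, an eSLC array and an SC array differed by at least 2-fold in 4261 to 5054 genes. Pairs of eSLC arrays differed so in 228 to 2611 genes and the SC pair in 330 genes. Arrays I9 and N2, labelled as from an IVP and an NT embryo, were the eSLC pair that differed in 228 genes, fewer than the SC pair. Whether these labels are right cannot be tested with the arrays. The first principal component held 80.2% of the variance and separated eSLCs from SCs, the second (8.0%) set I9 and N2 apart and the third (6.8%) set N7 apart.

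In eSLCs 2178 genes were called higher, 20.5% of those tested, and 1746 were called lower, 16.4%. Differences of 8-fold or more were found for 700 of the higher and 622 of the lower genes. All 6 eSLC arrays lay above both SC arrays for 3724 genes (35%) and below both for 2586 (24.3%), so that the groups did not overlap in 6310 genes (59.4%). A gap of at least 2-fold between the nearest arrays remained for 1264 genes above (11.9%) and 1167 below (11%). The median gene was 0.22 higher in eSLCs. A total of 303 genes called higher were not well above background on either SC array, and 101 called lower were not so on any eSLC array. Of the genes tested, 1263 entered the test through 1 group alone, which favours a difference, and counts are given below also over genes well above background on all 8 arrays where the filter matters. Over the 9363 such genes, 1798 were called higher and 1341 lower.

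The arrays lay on 2 slides, each with 3 eSLC arrays and 1 SC array. Within slide 1 (I2, I9, N7, SC P5) 758 genes were called higher and 700 lower, and within slide 2 (N2, P1, P4, SC P10) 893 and 817. The SC group carried the least replication: 1555 genes were called higher without SC P5 and 1763 without SC P10, against 1319 and 1358 lower. A call described as lost without either SC array was lost both when SC P5 and when SC P10 was left out, each in turn. With I9 and N2 averaged into 1 sample the counts were 2202 and 1747.

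Most, but not all, markers of trophoblast and simple epithelium were higher in eSLCs. Of the trophectoderm transcription factors, 7 of 10 tested were called higher and none lower, and 4 of the 7 that were well above background on all 8 arrays. CDX2, which specifies trophectoderm, lay between 5183 and 14887 (median 8899) in eSLCs and at the floor on both SC arrays, at least 675-fold higher. GATA3 lay between 17104 and 35339 (median 28326) against 39.5 and 25.0, a difference of 9.76. TFAP2A (-0.86), HAND1 (1.26) and MSX2 (0.45) were not called, and their eSLC arrays overlapped the SC arrays. EOMES was at the floor on all 8 arrays and was not tested. Ruminant trophoblast products were higher for 11 of 12 tested genes, and for 7 of the 8 well above background on all 8 arrays. PRP1 was not called (0.62). PRP2 and CSH2, at the floor on both SC arrays and in at least 1 eSLC line, did not enter the test. Simple epithelium genes were higher for 10 of 11, and for 7 of the 8 well above background on all 8 arrays, KRT7 (0.21) not called. Their summed signal was 410691 to 1045880 against 6384 and 7339. No eSLC array overlapped an SC array in that sum.

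Epiblast markers gave a divided picture, with 3 of 7 tested called higher and 2 lower. Of the 4 that were well above background on all 8 arrays, 1 was called higher and 2 lower. POU5F1, the pluripotency factor OCT4, lay between 30.7 and 898 (median 55.6) in eSLCs and at 16.3 and 26.0 in SCs. It was not called (difference 2.05, adjusted p = 0.168), and the value of 898 was that of N7. NANOG was at 13.3 to 35.4 in eSLCs, well above background on 5 of 6 arrays, and on neither SC array, where it was at the floor. It therefore did not enter the test. The 3 members called higher were CRIPTO (difference 5.01), LIN28A (at least 19.4-fold, at 187 to 316 against the floor) and DPPA4 (3.45). SOX2 and KLF4 were the 2 members called lower.

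The labels give no tissue for the SCs, whose arrays carried fibroblast markers. Of 14 tested, 13 were lower in eSLCs, with a summed signal of 5846 to 11379 against 722436 and 876526. VIM, the intermediate filament of mesenchymal cells, lay between 780 and 4410 (median 2362) in eSLCs against 174176 and 214488. Smooth muscle genes were lower for 5 of 7 and higher for 1, DES, whose 4 probes ranged from -8.01 to 3.11. Blood and immune markers were higher for 4 of 7, with a summed signal of 17008 to 54902 against 7870 and 8478. That class included AIF1, a calcium-binding protein of macrophages, at 1844 to 16252 (median 3390) against the floor. The part of immune cells in the eSLC values was not tested. Of the other classes, hypoblast markers were higher for 1 and lower for 2 of 7, keratinocyte markers higher for 2 of 6, cartilage markers higher for 1 and lower for 2 of 4, endothelial markers higher for 2 and lower for 1 of 5, and melanocyte markers higher for 1 and lower for 1 of 4.

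The 12 largest rises among called genes well above background on all 8 arrays included GATA3, given above. PLAC8A, a placenta-specific protein, lay between 61675 and 251345 (median 160814) in eSLCs and at 21.6 and 18.9 in SCs, a difference of 12.84 (SE 0.46, adjusted p = 2.41e-07). SSLP1, a secreted Ly-6 protein, followed at 12.05, with 3 probes that ranged from 0.04 to 12.05. CGA, the shared alpha subunit of the glycoprotein hormones, lay between 6978 and 181422 (median 49032) and was at the floor in both SC arrays, at least 3639-fold higher. KRT18 (10.17), a keratin of simple epithelia, and PAG8 (9.72) belonged to the same set, as did GSTA3, a glutathione transferase that was at least 869-fold higher.

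The remaining rises were those of FUT6 (9.59), a fucosyltransferase, PLBD1 (9.35), a phospholipase B-like protein, and AP1M2 (9.22), the epithelial subunit of the AP-1 clathrin adaptor. BSPRY (9.18) and HKDC1 (9.15), a hexokinase-like protein, completed the 12. BSPRY varied little among eSLC arrays, between 7581 and 12200. CGA had the widest range of the 12, given above.

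The 12 largest falls were taken from the same genes. S100A4, a calcium-binding protein of motile mesenchymal cells, lay between 45.4 and 209 (median 90.5) in eSLCs against 148933 and 204682 in SCs, a difference of -10.98 (SE 0.53, adjusted p = 1.31e-06). TPM2, a tropomyosin of contractile filaments, differed by -10.86. LTBP2 (-9.54), which binds latent TGF-beta complexes in the matrix, and RTP4 (-9.26), an interferon-induced protein, lay at or close to the floor in eSLCs. Every eSLC array lay far below both SC arrays for each of these genes.

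THBS1 (-9.20), COL6A1 (-9.76), LOX (-8.78), FMOD (-8.72), HAPLN3 (-8.64) and COL11A1 (-8.63) are matrix proteins or act on matrix. GEM (-8.96) is a small GTPase and DDAH1 (-8.64) degrades methylated arginines. The eSLC arrays differed among themselves most in THBS1, from 45.2 to 2036, and by little in COL11A1, from 21.5 to 42.4.

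**Figure D1:**
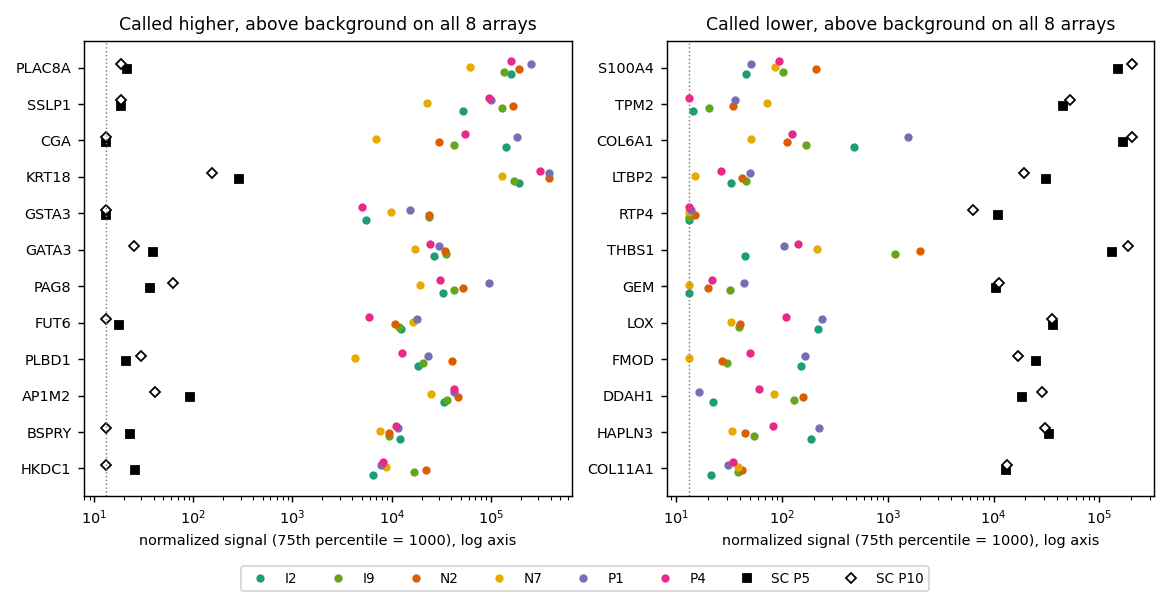
Normalized signal (log axis, 75th percentile of each array = 1000) of the 12 genes with the largest rise (left) and fall (right) in eSLCs among genes called and well above background on all 8 arrays. Circles are the 6 eSLC lines, squares and diamonds the 2 SC arrays, and the dotted line is the floor of 13.3. The eSLC and SC points do not overlap in any of the 24 genes.

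Among genes not well above background in SCs, the largest bounds were those of PAG2 (at least 8567-fold), PAGE4 (at least 8201-fold), DEFB, a beta-defensin (at least 6055-fold), PAG11 (at least 5043-fold), TKDP4, a trophoblast Kunitz domain protein (at least 3990-fold), and SLC39A2, a zinc importer (at least 3700-fold). TKDP4 spread the most among eSLCs, from 2224 to 307800, whereas PAGE4 stayed between 55878 and 230894. In the other direction, CCN5, a matricellular protein, was at least 2383-fold lower, ASPN at least 1410-fold, EPDR1 at least 987-fold, CAVIN1 at least 789-fold, SFRP4 at least 632-fold and EFEMP1 at least 453-fold. All 6 eSLC arrays were at the floor for these 6 genes. SC P5 and SC P10 lay at 32809 and 30523 for CCN5 and at 5535 and 6543 for EFEMP1.

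A set of 40 lists of pathway members were described by their counts and by the median difference, to be read beside the 20.5% higher, 16.4% lower and median of 0.22 over all genes tested. Of the 40, 22 had a median above that of all genes.

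**Figure D2:**
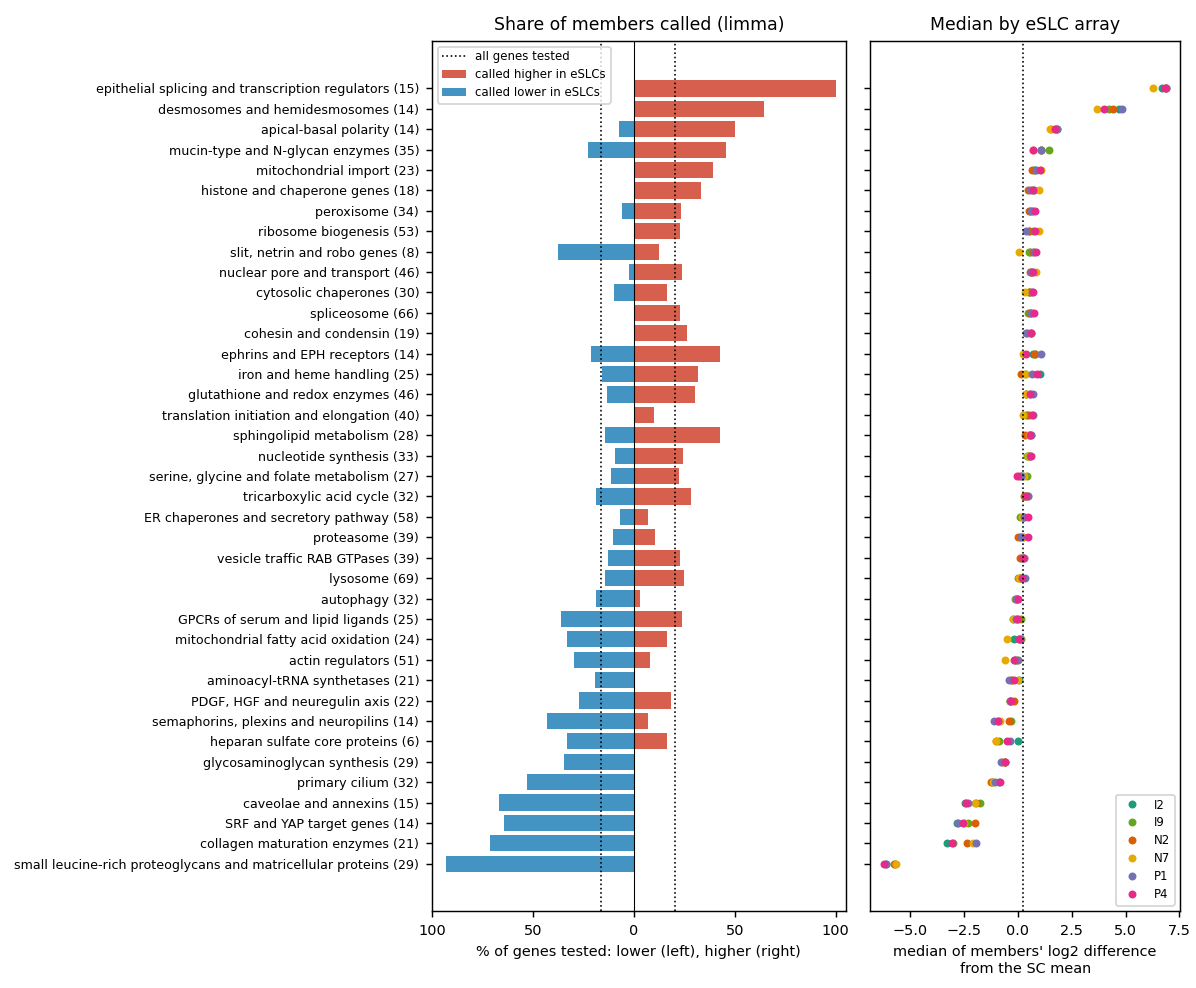
Left, share of the tested members of each pathway list described (number tested in brackets) called higher (red, to the right) or lower (blue, to the left) in eSLCs, with dotted lines at 20.5% and 16.4%, the shares over all genes. Right, median over the members of the log2 difference from the SC mean for each eSLC array, with a dotted line at the median of all genes. The list of epithelial regulators, with its proteases and their inhibitors (15 of 15 higher), and that of matrix proteoglycans (27 of 29 lower) lie at the ends. The eSLC arrays stay close together within most lists.

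The list of epithelial splicing and transcription regulators rose as a whole: 15 of 15 tested were called higher, with a median difference of 6.73. Of the 15, 10 were well above background on all 8 arrays, and all 10 were called higher. The list also held membrane proteases, their inhibitors and a tight junction protein, so that count and median are not those of regulators alone. GRHL1, a grainyhead transcription factor of surface epithelia, lay between 8393 and 15923 (median 11534) in eSLCs and at 20.1 and 34.2 in SCs. OVOL2, a repressor of mesenchymal genes, was at least 364-fold higher, and ESRP1, which directs epithelial exon choice, at least 106-fold. ESRP2 differed by 6.49, with probes from 0.71 upward, and KLF5, which several epithelia need, by 2.34, whereas MARVELD3, a tight junction protein, was at least 6.58-fold higher.

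The membrane protease cascade of epithelia was part of that list, with both the proteases and their inhibitors. The protease PRSS8 lay between 20324 and 41638 (median 28182) against 71.7 and 49.5, a difference of 8.90, and matriptase, ST14, differed by 8.28. Their Kunitz-type inhibitors SPINT1 (9.04) and SPINT2 (5.55) were higher as well. SPINT2 lay between 55878 and 126580 in eSLCs against 1852 and 1672.

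Desmosome genes were called higher for 9 of 9, with a median of 6.12. Of these, 8 were well above background on all 8 arrays. DSP, which ties keratin filaments to the desmosome, lay between 26386 and 51574 (median 42829) against 194 and 142. PKP2 differed by 7.51, DSG3 by 3.31 and JUP, which desmosomes share with adherens junctions, by 1.87. Hemidesmosome genes did not share this, with 0 of 5 called and a median of -0.06. ITGB4 lay between 1278 and 7764 in eSLCs against 1768 and 1140, and COL17A1 between 30.3 and 147 against 175 and 91.3, so that the groups overlapped in both genes.

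Polarity genes were higher for 7 of 14 and lower for 1, with a median of 1.68. Over the 12 well above background on all 8 arrays, 5 were higher and 1 lower, with a median of 0.62. PARD6B, the PAR6 scaffold protein, lay between 8119 and 12508 (median 11310) against 52.3 and 27.9, whereas its paralog PARD6A was lower (-1.56), at 205 to 325 against 770 and 643. PRKCZ, the atypical protein kinase C of the PAR complex, was at least 82.4-fold higher and CRB3, the epithelial Crumbs protein, differed by 4.85.

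The matrix lists lay at the other end. Small leucine-rich proteoglycans and matricellular proteins were called lower for 27 of 29 and higher for none, with a median of -5.93, and for 14 of the 16 that were well above background on all 8 arrays. LUM lay between 13.3 and 99.0 (median 17.7) in eSLCs against 38247 and 28636, and FBLN1 between 13.3 and 118 against 31008 and 21218. The difference in PRELP was small (-1.08), and its call was lost without P1 and without either SC array. DCN and BGN were the members not called, but their probes disagreed: 7 of the 9 probes of DCN were at least 2-fold lower, with a median of -10.23, while the brightest differed by -0.80, and 2 of the 3 probes of BGN were lower, from -10.77 to -0.08.

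Enzymes that mature collagen were lower for 15 of 21 and higher for none, with a median of -2.69. ADAMTS2, which removes the amino-terminal propeptide, lay between 14.5 and 374 (median 117) against 14555 and 12319. SERPINH1, the collagen chaperone HSP47, differed by -6.17 with a wide range of 122 to 2854. PLOD2, a lysyl hydroxylase, pointed the other way without being called, at 2561 to 9121 against 1515 and 2659 (adjusted p = 0.127).

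Glycosaminoglycan synthesis was lower for 10 of 29 and higher for none. PAPSS2, which makes the sulfate donor, lay between 13.3 and 36.9 (median 20.6) against 1744 and 1709. DSE (-4.80) and CHSY1 (-3.84), which make dermatan and chondroitin sulfate chains, were lower too. Among heparan sulfate core proteins GPC2 was higher (2.05), while GPC4 (-5.29) and SDC2 (-4.57) were lower.

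Caveola genes were called lower for 5 of 5 (2 of them well above background on all 8 arrays), with a median of -7.49, and annexins for 5 of 10, or 3 without either SC array. CAV1, the coat protein of caveolae, was at the floor in 4 eSLC lines, at 32.9 in the highest, and at 77491 and 82014 in SCs, a difference of -12.23. CAV2 lay between 19.4 and 72.4 against 390 and 488 (-3.52). EHD2, an ATPase at the caveolar neck, was at least 55.8-fold lower. CAVIN1, given above, had 10 probes that ranged from -9.62 to -0.53, 8 of them at least 2-fold lower.

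Targets of SRF and YAP, which answer to actin assembly and cell spreading, were lower for 9 of 14 and higher for none. TAGLN lay between 27.9 and 782 (median 110) against 32783 and 50601, and CNN1 differed by -7.66. ANKRD1 differed by -6.55 but had SC values of 9918 and 34452, and its call was lost without SC P10. Actin regulators at large were lower for 15 of 51 and higher for 4. TPM1 fell by 4.59, and PDLIM1 (2.21) and MYL12B (1.50) were higher, the last not called without SC P5.

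Genes of the primary cilium were lower for 17 of 32 and higher for none. All 6 eSLC arrays lay below both SC arrays for 26 of these 32, against 24.3% of all genes tested. The median difference of the cilium genes was -1.10. IFT122, of the retrograde transport complex, lay between 207 and 313 (median 251) in eSLCs against 3295 and 3180 in SCs, a difference of -3.67 (SE 0.20, adjusted p = 3.05e-06). IFT81, of the anterograde complex, differed by -3.49, the kinesin-associated KIFAP3 by -1.84 and the BBSome subunit BBS2 by -1.78. The spread among eSLCs was small in these genes, and ARL6, which recruits the BBSome, overlapped at 116 to 197 against 100 and 120. Probes of ARL6 differed in sign, from -0.86 to 0.42. The count was 10 of 32 without SC P5, 14 without SC P10 and 11 with the SC arrays averaged.

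**Figure D3:**
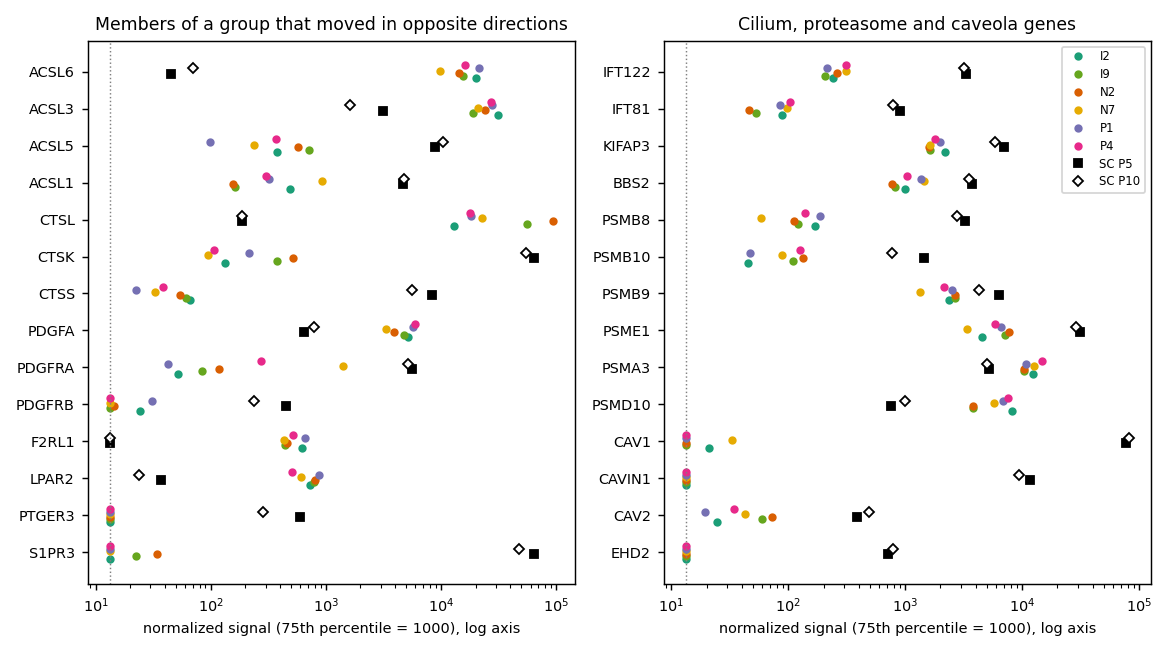
Normalized signal (log axis, 75th percentile of each array = 1000) of genes from groups whose members moved in opposite directions (left: acyl-CoA synthetases, cathepsins, PDGF genes and G protein-coupled receptors) and of cilium, proteasome and caveola genes (right). Circles are the 6 eSLC lines, squares and diamonds the 2 SC arrays, and the dotted line is the floor of 13.3. IFT122 lies at 207 to 313 in eSLCs against 3295 and 3180, and ACSL6 lies above the SC arrays where ACSL5 and ACSL1 lie below them.

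Of 14 semaphorins, plexins and neuropilins tested, 6 were called lower and 1 higher, but none of the 5 that were well above background on all 8 arrays was called, so that all 7 calls came from genes tested through 1 group. The secreted ligand SEMA3C (-7.90) and its receptor NRP1 (-8.15) were both lower, with most eSLC arrays at the floor. SEMA4D, a membrane-bound semaphorin, was at least 6.91-fold higher, at 75.8 to 108 against the floor.

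Ephrin ligands were higher for 4 of 7 and lower for 1, and EPH receptors were split at 2 and 2 of 7. EFNA4 lay between 2016 and 10554 (median 5055) against 138 and 88.2, and its class of receptor held EPHA1, higher by 6.37, and EPHA4, lower by 2.21. Probes of EPHA4 differed in sign, from -2.21 to 0.14. EPHA4 had SC values of 179 and 474 and was not called without either SC array. EFNA2 (-1.21) was not called without SC P5. Slit, netrin and robo genes were higher for 1 and lower for 3 of 8, the 3 of them tested through SCs alone. There UNC5B, a netrin receptor, was higher (4.49), the ligand SLIT3 at least 58.1-fold lower and its receptor ROBO1 lower by 5.84.

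Most genes of the nucleus and of RNA handling were not called. Spliceosome genes were higher for 15 of 66 (22.7%, close to the 20.5% of all genes) but lower for none. All eSLC arrays lay above both SC arrays for 42 of these 66, against 35% of all genes tested. The median of the spliceosome genes was 0.58. SNRPD3, a core snRNP protein, lay between 20260 and 35692 (median 23831) against 6422 and 9090, and LSM3, of the U6 particle, differed by 1.56. The count was 10 without SC P5, 22 without SC P10 and 7 in the authors' normalized values.

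Ribosome biogenesis genes were higher for 12 of 53 (22.6%) and lower for none, with a median of 0.68. FBL, the methyltransferase of the nucleolus, lay between 49288 and 68277 (median 58163) against 14785 and 22338, and NOLC1 differed by 1.53. The count was 6 without SC P5, 17 without SC P10 and 6 in the authors' normalized values. Translation factors were higher for 4 of 40 and lower for none, led by EIF4B (1.90), but for 1 without SC P5, 2 without SC P10 and 1 after quantile normalization. PABPC1 (1.18), which binds poly(A) tails, lost its call without P4, without either SC array and under quantile normalization.

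Nuclear pore and transport genes were higher for 11 of 46 and lower for 1, and higher for 6 without SC P5 and 17 without SC P10. NUP210, a membrane-anchored nucleoporin, was the exception in size, at 829 to 7365 (median 5378) against 25.9 and 25.6. XPO4, an exportin, differed by 2.50 and KPNA1, an importin alpha, by -1.28. Probes of KPNA1 differed in sign, and it was not called when its probes were averaged.

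Mitochondrial import genes were higher for 9 of 23 and lower for none, with a median of 0.84. TIMM8A differed by 1.67 and TOMM20, a receptor of the outer membrane, by 1.38, the latter not called without SC P5. The count was 4 after quantile normalization and 3 in the authors' normalized values. Histone genes and their chaperones were higher for 6 of 18 and lower for none, but higher for 2 in the authors' normalized values. NASP lay between 16632 and 29544 (median 21801) against 3372 and 6393, and NAP1L1 was higher by 2.24. Cohesin and condensin genes were higher for 5 of 19 and lower for none, but for 1 without SC P5, where SGO1 (1.62) and ESPL1 (1.49) were among the calls lost.

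The proteasome differed by its parts. The standard 20S core was called higher for 1 of 14 and the 19S cap for 3 of 20, and neither had a member called lower. The immunoproteasome, whose subunits replace standard ones when interferon acts, was lower for 4 of 5. PSMB8 lay between 58.4 and 188 (median 130) against 3232 and 2765. PSMB10 (-3.66), the activator PSME1 (-2.41) and PSMB9 (-1.24) were lower too, PSMB9 not without SC P5. In the standard particle PSMA3 was higher by 1.21 and PSMD10, a cap assembly chaperone, by 2.72.

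Cytosolic chaperones were higher for 5 of 30 (3 without SC P5) and lower for 3, and none of the 8 subunits of the CCT ring was called. STIP1, which links HSP70 to HSP90, lay between 17812 and 31496 against 6596 and 7258. CRYAB, a small heat shock protein, was lower by 6.34. VBP1 (1.67) and HSPB8 (-1.61) were called only while both SC arrays were kept. Chaperones and enzymes of the endoplasmic reticulum were mostly level, with 4 higher (1 without SC P5) and 4 lower of 58 (7 after quantile normalization). There ERO1A, an oxidase for disulfide bonds, differed by 2.35 but lost its call without either SC array, and CREB3L1, a transcription factor of secretory cells, by -2.74. Aminoacyl-tRNA synthetases were lower for 4 of 21 (2 without SC P10) and higher for none, among them WARS1 (-1.68), which interferon induces, and GARS1 (-1.90), not called without either SC array.

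Metabolic lists mostly held calls in both directions. Nucleotide synthesis was higher for 8 of 33 (3 without SC P5) and lower for 3. DHODH, of pyrimidine synthesis, lay between 4917 and 6720 (median 6049) against 1122 and 1763, a difference of 2.05. CTPS1 (-1.82) was not called without SC P10, nor APRT (-1.35), a salvage enzyme, without either SC array.

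Serine, glycine and folate genes were higher for 6 of 27 and lower for 3 (6 after quantile normalization). Both folate carriers named here were called higher. FOLR1, a folate receptor, was at least 64.1-fold higher, and SLC46A1, the proton-coupled transporter, lay between 2380 and 3604 (median 2922) against 196 and 193. GLDC, which cleaves glycine in mitochondria, was lower by 8.07, at 17.1 to 71.6 against 13760 and 7226. PSPH, which makes serine, was lower by 1.48 but not without either SC array.

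The tricarboxylic acid cycle list was higher for 9 of 32 (2 in the authors' normalized values) and lower for 6 (3 without SC P10). IDH1, the cytosolic isocitrate dehydrogenase, differed by 3.63 and PDHB, of pyruvate dehydrogenase, by 1.73, the latter not called without SC P10. Among the members called lower, PCK2, which makes phosphoenolpyruvate, lay between 1131 and 4257 (median 1974) against 46844 and 48323, and ME3, a mitochondrial malic enzyme, differed by -5.33.

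Mitochondrial fatty acid oxidation was lower for 8 of 24 and higher for 4. Acyl-CoA synthetases, which activate fatty acids, were on both sides. ACSL6 lay between 9721 and 21457 (median 15870) against 44.9 and 70.5, and ACSL3 was higher by 3.45. ACSL5 (-4.86) and ACSL1 (-3.87) were lower. No eSLC array overlapped an SC array in any of these 4 genes.

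Glutathione and redox enzymes were higher for 14 of 46 and lower for 6, and 8 and 3 without SC P5. In the authors' normalized values 3 of them were called higher. GLRX, a glutaredoxin, lay between 12234 and 31921 (median 18339) against 1389 and 1096. GPX7, a peroxidase of the endoplasmic reticulum, differed by -3.53. MGST3, a membrane-bound glutathione transferase, was at the floor in all eSLC lines but N7, where it was at 774, against 14118 and 15047.

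Iron and heme genes were higher for 8 of 25 and lower for 4, or 5 and 2 without either SC array. SLC11A2, the ferrous iron transporter DMT1, lay between 4005 and 6271 (median 5285) against 347 and 314. ALAS2, the heme synthesis enzyme of red cell precursors, was at least 45.8-fold higher. The ferrireductases STEAP1 (-6.47) and STEAP2 (-3.72) were lower, STEAP1 with N7 at 874 and the other lines far below it, and neither was called without either SC array.

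Lysosomal membrane proteins were higher for 10 of 28 and lower for none, whereas hydrolases were higher for 7 (4 without SC P5 and 3 without SC P10) and lower for 10 of 41. The cathepsins were split. CTSL lay between 12968 and 94178 (median 20432) against 187 and 186, whereas CTSK, which degrades collagen, lay between 94.1 and 516 against 64241 and 54941, and CTSS differed by -7.31. CTNS, which exports cystine, was higher by 2.94. The median over the 69 lysosomal genes changed its sign under quantile normalization and in the authors' own normalized values, so that it has no direction.

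Autophagy genes were lower for 6 of 32 (3 without SC P5) and higher for 1. MAP1LC3B, the LC3 protein of autophagosomes, lay between 675 and 1128 (median 1024) against 7053 and 6440. SQSTM1, a cargo receptor, was lower by 1.53 but not called without SC P5, and WIPI1 (-3.71) was not called without either SC array. ATG5, the member called higher (1.18), lost its call without P4, without either SC array and when probes were averaged.

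Peroxisome genes were higher for 8 of 34 (23.5%, near the share of all genes, and 3 in the authors' normalized values) and lower for 2. IDH1, given above, rose the most (3.63), and the thioesterase ACOT8 was higher by 2.31. ACOX2 and CROT, which act on branched and medium-length acyl chains, were lower. CROT differed by -3.14, and ACOX2 was close to the floor in 5 lines and at 281 in N7, against 2710 and 2267.

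Sphingolipid genes were higher for 12 of 28 and lower for 4. The ceramide synthase CERS4 was at least 244-fold higher and the sphingomyelinase SMPD3 at least 41.0-fold. S1PR3, a receptor for sphingosine 1-phosphate, lay at 13.3 to 34.2 against 64330 and 47251, a difference of -11.67. ST3GAL5, which makes the ganglioside GM3, was lower by 4.33.

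Mucin-type and N-glycan enzymes were higher for 16 of 35 and lower for 8 (5 without SC P10). The list included the membrane mucin MUC1, at 7383 to 30914 (median 11032) against 40.5 and 28.7, with 5 probes from 1.17 to 8.52. B3GNT3, which extends core glycans, was higher by 8.28. ST3GAL2, a sialyltransferase, was lower by 4.90 and GALNT14, which starts O-glycans, at least 26.1-fold.

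RAB GTPases of vesicle traffic were higher for 9 of 39 (5 without SC P10) and lower for 5, close to the shares of all genes. RAB25, an epithelial RAB of apical recycling, lay between 15327 and 28224 (median 22397) against 276 and 206. RAB27B, of regulated secretion, was at least 73.0-fold higher and RAB31 was lower by 4.25.

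G protein-coupled receptors for ligands of serum and lipids were higher for 6 of 25 and lower for 9, but 4 and 4 of the 14 well above background on all 8 arrays. F2RL1, the receptor that trypsin-like proteases cleave, was at 437 to 658 (median 490) and at the floor in SCs, at least 38.8-fold higher. LPAR2, for lysophosphatidic acid, lay between 506 and 871 against 37.0 and 23.9. All 4 prostaglandin E receptors were called lower, with PTGER3 at least 31.1-fold lower and PTGER4 at -4.16, although PTGER4 lost its call without either SC array.

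In the axis of PDGF, HGF and neuregulins, ligands were lower for 3 of 12 and higher for 1, and receptors were split at 3 and 3 of 10. Over the 12 genes of the axis well above background on all 8 arrays 4 were higher and 2 lower. PDGFA, the ligand, lay between 3339 and 5899 (median 4989) against 641 and 797. The 2 PDGF receptors lay the other way: PDGFRB differed by -4.26, and PDGFRA by -5.23, with N7 at 1422, the other lines lower and a call that was lost without either SC array. VEGFC (-7.45) and the collagen receptor DDR2 (-6.02) were lower. TYRO3, a receptor of the TAM family, was higher by 3.84.

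Families were also formed from the letters before the first digit of a symbol, and 157 of them had at least 8 genes tested. The highest medians were those of PAG (10 of 12 higher, median 9.87), claudins (8 of 13 higher and 1 lower, 2.28, 5 higher without SC P5) and kallikreins (5 of 8 higher, 2.11, 3 without either SC array), beside MGC, UNC and TEX, which share letters and not function. Only 2 of the PAG genes were well above background on all 8 arrays, 1 of them called higher. The other PAG genes entered the test through 1 group alone, which favours a difference. Where their SC signals are at the floor, the difference is only a bound. CLDN6 was at least 651-fold higher, and CLDN11 lay between 13.3 and 211 against 118 and 141. KLK10, a secreted serine protease, lay between 733 and 19117 against 92.6 and 39.4, whereas KLK9 overlapped at 22.1 to 34.1 against 27.6 and 19.7.

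The lowest medians were those of ADAMTS proteases (-2.65, 5 of 9 lower and 2 higher), collagens (-2.30, 11 of 19 lower and 1 higher), CXCL chemokines (-1.54, 4 of 9 lower), SMAD proteins (-1.40, 5 of 8 lower), RGS proteins (-1.29, 6 of 13 lower and 1 higher) and MMPs (-1.27, 5 of 11 lower and 3 higher). Over the 7 MMP genes well above background on all 8 arrays the median was 1.30, with 3 higher and 2 lower, so that the family has no settled direction. Over such genes the medians were -0.49 for RGS, -0.62 for CXCL, -1.03 for SMAD, -1.25 for ADAMTS and -2.37 for collagens. MMP2, a gelatinase, lay between 54.4 and 228 against 20424 and 15671, and the membrane-bound MMP15 between 2791 and 12112 against 84.9 and 59.3. ADAMTS1 was higher by 2.80 but not called without SC P5.

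SMAD9 differed by -4.07 and SMAD1 by 0.32 (not called). Both transduce BMP signals. CXCL3 differed by -6.80 and CXCL17 by 0.39 (not called). RGS3 was lower by 6.78. RGS14 was higher by 2.48, a call lost without I2, N7, P1 or P4, without either SC array and under quantile normalization. COL18A1 spread from 289 to 35285 in eSLCs, the highest in N7, against 321 and 233.

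Calls were uneven over the chromosomes, numbered as in RefSeq's ARS-UCD2.0 table. Of the 307 genes tested on chromosome 4, 11.4% were called higher and 24.8% lower. The median difference on it, less that of all genes on the same array, was -0.87 in I2, -0.93 in P1 and -0.78 in P4, but -0.15 in I9, -0.11 in N2 and -0.05 in N7. In the first 3 lines 75.2% to 77.2% of its genes lay below the median of all genes, against 52.8% to 53.7% in the others. The shift ran along the whole chromosome: in 3 equal parts by gene order it was -1.18, -0.82 and -0.49 in I2.

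CAV1, CAV2, SEMA3C, EPDR1, SFRP4, GARS1, STEAP1, STEAP2, CROT and EPHA1 are genes of chromosome 4. CAV1, EPDR1 and SFRP4 were at or near the floor in I9, N2 and N7 too. In these lines the whole chromosome was at -0.15 to -0.05, but its first part by gene order was at -0.42 in I9, -0.37 in N2 and -0.16 in N7. STEAP1 and SEMA3C were highest in N7, at 874 and 146. Whether single genes follow the shift of the chromosome was not tested. On chromosome 14, with 233 genes tested and 28.3% called higher, the shift was 0.43 to 0.50 in I2, I9, N2 and P4, 0.22 in P1 and 0.03 in N7. Chromosome 12 was at 0.57 in I9 and N2, and chromosome 5 at 0.36 and 0.34 in the same lines against -0.05 to 0.00 in the others. These are descriptions with no test, and DNA copy number was not analysed here.

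**Figure D4:**
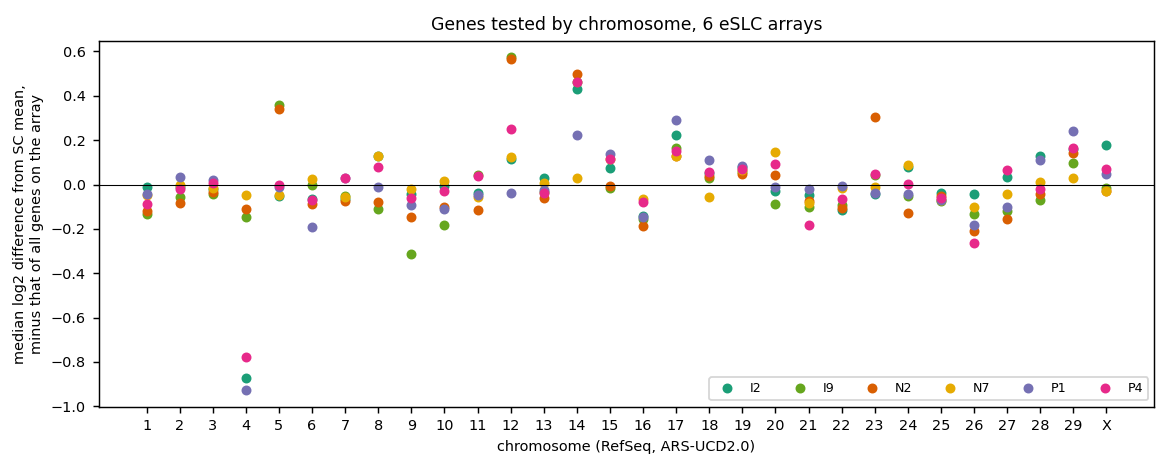
Median log2 difference from the SC mean of the genes tested on each chromosome, less the median of all genes tested on the same array, for each of the 6 eSLC lines. Chromosome 4 lies at -0.93 to -0.78 in I2, P1 and P4 and at -0.15 to -0.05 in I9, N2 and N7.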

How the data were processed

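RNA of 8 samples was hybridized in 1 colour (Cy3) to bovine 44K Agilent arrays, 1 array a sample. The authors extracted the spot intensity values with Feature Extraction 11.5.1.1, and the deposited scanner files hold background-subtracted intensity, which was used here. The processed signal of 6 of the 8 files was out of step with it and was not used. The deposited series table holds the authors' normalized signal, made with GeneSpring GX 7.3 per the study's methods. Its scale and centring are not stated, and it served as an alternative.

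Control and outlier spots were left out. Each array was divided by its 75th percentile, floored at 13.3 and log2 transformed. Of 43653 probes, 26731 carried 1 gene, giving 12602 genes, and a gene was tested where, in 1 group or both, no array had its brightest probe below the scanner's background limit. Between 71.2% and 76.7% of spots were well above background, and the number of arrays limits the precision. The test was limma 3.58.1 in R 4.3.3 with 1 mean per group and Benjamini-Hochberg adjustment over all genes tested. In 5 simulations, 200 of 10626 genes were changed 4-fold, with independent normal noise and no floor. Of the genes changed, 75.1% were recovered, with at most 8 false calls. In the arrays 36.9% of genes were called and many signals were floored, so these figures do not give the error of the calls.

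Genes named were the 12 largest rises and falls measured on all arrays, the 6 largest at-least folds each way, up to 2 rises and 2 falls per list, the ends of named families and markers. Others (the remaining list members) were chosen after their values were seen. Symbols starting with LOC were not named, and 1 list and a few genes that the rule names are not reported here. The members and lists were chosen with earlier results of these data known. Alternatives were other scalings, backgrounds, filters, probe rules, slides and left-out arrays.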

Additional observations from a re-analysis of the deposited data

Results flagged for a closer look

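In 16 of the 196 named genes examined, 1 eSLC array lay apart from the other 5. Its gap to the nearest array, over the range of the 6, exceeded Dixon's critical value of 0.625. Chance flags about 1 in 20 groups, which does not hold where arrays are tied at the floor. The other 5 were tied there in FBLN1, NRP1, MGST3 and CREB3L1, which fixes the ratio at 1, and 4 were in RTP4, SEMA3C, ROBO1, ACOX2 and SMAD9 and 2 in STEAP1. Line I9 was the highest in ROBO1 (0.900, signal 25.2), with the ratio of gap to range and the signal in brackets. Line N2 was the highest in RTP4 (0.654, signal 15). Line N7 was the highest in FBLN1 (1, signal 118), NRP1 (1, signal 23.6), SEMA3C (0.737, signal 146), MGST3 (1, signal 774), STEAP1 (0.645, signal 874), ACOX2 (0.982, signal 281), COL18A1 (0.824, signal 35285) and POU5F1 (0.648, signal 898). Line N7 was the lowest in DEFB (0.693, signal 8789), ESRP1 (0.648, signal 1040), PSMB9 (0.693, signal 1338) and NUP210 (0.631, signal 829). Line P1 was the highest in CREB3L1 (1, signal 22.7) and SMAD9 (0.676, signal 15.6). 

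In the authors' normalized values SC P5 and SC P10 lay within 1% of each other for 21.4% of probes, against 0.323% to 1.87% in the other pairs and 2.39% in the scanner signals of the same arrays. The cause was not tested.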

How the results depend on the processing

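No gene called here among the 196 examined changed direction under any alternative run. In the authors' normalized values 1383 genes were called higher against 2178, and 2075 against 3724 had every eSLC array above both SC arrays. With the SC arrays of those values averaged, an alternative chosen after seeing the data, 654 were called higher and 737 lower. Of the 3924 called genes, 2735 were called the same way in the authors' values and 6 the other way. Within slide 1 the counts were 758 and 700, and within slide 2 they were 893 and 817, each with 1 SC array. Leaving out 1 array gave 1555 to 2257 higher and 1319 to 1781 lower, 3767 to 4287 genes wholly above and 2621 to 2976 wholly below, and 22 to 23 lists with a median above that of all genes. The cause of these shifts was not tested. The other alternatives, slide as a block (2155 and 1711) and the methods' t-test after Benjamini-Hochberg (1990 and 1614) included, kept the counts within 1.5 times. Normexp on the median signal and the averaging of I9 and N2 were also chosen after seeing the data.

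Quantile normalization lowered the median of all genes from 0.22 to 0.11, no filter also to 0.11 and the authors' values to 0.02, so small differences such as those of splicing or proteasome genes have to be read against that shift. Of the 195 examined genes with a test, 20 lost their call with the SC arrays averaged, 24 without SC P5 and 19 without SC P10. The call was lost for 17 in the authors' values and 55 in those values with the SC arrays averaged. It was lost for 80 within slide 1 and 66 within slide 2. No paired analysis was possible because the replicate numbers of eSLC lines and SC passages name different cultures. Promoter sequences were not analysed here. Signals at the floor have no order.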
